A study of Rattus norvegicus with 10 samples.

Results

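The genes described here belong to the antigen presentation machinery, and 10 were taken by symbol: B2m, Tap1, Tap2 and Tapbp of the class I pathway, and Cd74, RT1-Da, RT1-Db1, RT1-Ba, RT1-Bb and Ciita of the class II pathway. All 10 were among the 17168 genes measured, and 9 were among the 12161 that had enough reads to be tested, Ciita being the exception. Each of the 10 libraries held RNA from the left hippocampus of 1 male TgF344-AD rat, killed at 11 months. The untreated group (5 rats) ate rodent chow. The RG2833 group (5 rats) ate chow with 750 mg per kg of RG2833, which blocks HDAC1 and HDAC3 (enzymes that remove acetyl groups from histones), from 5 months of age for 6 months. Rats of both groups carried the transgenes and were perfused with cold buffer under ketamine and xylazine. As background, TgF344-AD rats express mutant human disease transgenes from the mouse prion promoter on the Fischer (F344) background. The design text names another drug, ibudilast, in a sentence on timing, and the treatment labels, which name RG2833, were followed.

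Class I molecules display peptides from proteins made inside a cell. Their heavy chain pairs with beta-2 microglobulin (B2m), the peptides reach the endoplasmic reticulum through the transporter made of Tap1 and Tap2, and tapasin (Tapbp) holds the empty molecule at that transporter. Class II molecules display peptides from engulfed proteins, and in the rat they are the RT1-D pair (RT1-Da and RT1-Db1, counterparts of human HLA-DR) and the RT1-B pair (RT1-Ba and RT1-Bb, counterparts of HLA-DQ). Cd74, the invariant chain, fills their groove until they reach the endosome, and Ciita is the coactivator on which class II transcription depends. In the brain, class II is known mainly from activated microglia and from macrophages of the meninges, vessels and choroid plexus, while class I is found on many cell types. Interferon gamma raises both sets of genes.

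Under RG2833, 0 of the 9 tested genes passed edgeR's test, as did 0% of all genes. The difference was at most 0.23 on the log2 scale in either direction, and the groups overlapped for every gene. Rats of the same group differed more in the class II genes (SD of log2 CPM 0.41 to 0.53) than in B2m (0.19). The median SD was 0.39 for class I heavy chains and 0.19 for all genes. Cd74 and the 4 class II chains were high or low in much the same rats, the highest library being up to 2.68 times the lowest, and both groups held high and low rats.

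The promoters of these genes are shown first because genes that vary together from rat to rat are often looked at for shared letters upstream. RefSeq promoters (assembly GRCr8, from 250 bases before to 50 bases after the annotated start) were at hand for 9 of the 10 genes, and the 150 bases just before the start are printed for the 4 class II chains, for B2m and for Tapbp, 5′ to 3′ on the gene's own strand. Capitals mark matches to the letters GCAACNG, found in the X box of class II promoters, to CCAAT or its reverse complement ATTGG, the letters of the Y box bound by NF-Y, and, in B2m and Tapbp, to GAAANNGAA, letters of an interferon response element.
RT1-Da, chr20:4515265-4515414, plus strand: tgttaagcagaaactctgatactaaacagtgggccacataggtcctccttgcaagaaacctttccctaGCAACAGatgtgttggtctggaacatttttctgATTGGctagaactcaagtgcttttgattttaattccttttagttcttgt
RT1-Ba, chr20:4576907-4577056, plus strand: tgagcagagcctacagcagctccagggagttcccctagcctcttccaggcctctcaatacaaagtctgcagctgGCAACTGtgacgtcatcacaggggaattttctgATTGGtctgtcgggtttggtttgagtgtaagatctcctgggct
RT1-Db1, chr20:4560163-4560312, minus strand: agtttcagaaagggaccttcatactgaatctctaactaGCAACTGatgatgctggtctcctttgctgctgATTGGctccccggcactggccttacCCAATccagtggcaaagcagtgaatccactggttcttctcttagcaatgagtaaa
RT1-Bb, chr20:4604119-4604268, minus strand: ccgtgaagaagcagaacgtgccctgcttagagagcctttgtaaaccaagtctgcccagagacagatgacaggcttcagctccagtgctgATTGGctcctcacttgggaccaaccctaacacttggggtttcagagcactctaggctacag
B2m, chr3:129549180-129549329, plus strand: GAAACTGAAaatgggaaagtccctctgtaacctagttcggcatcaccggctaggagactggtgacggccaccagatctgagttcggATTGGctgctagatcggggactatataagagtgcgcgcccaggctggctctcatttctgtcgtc
Tapbp, chr20:4967878-4968027, minus strand: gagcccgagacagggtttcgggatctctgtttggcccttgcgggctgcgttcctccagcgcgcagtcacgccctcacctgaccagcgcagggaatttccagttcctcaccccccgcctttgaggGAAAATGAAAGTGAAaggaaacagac
In RT1-Da and RT1-Ba, GCAACNG began 33 bases before ATTGG, and in RT1-Db1 it began 32 bases before it. RT1-Bb held ATTGG with its first base 61 bases before the start, and no GCAACNG in the window. B2m held GAAANNGAA at 150 and ATTGG at 64 bases before the start. In Tapbp, GAAANNGAA occurred at 26 and again at 20 bases before the start, the matches overlapping. Over the whole windows and both strands, CCAAT was found in 6 of the 9 promoters, those of B2m, Cd74 and the 4 class II chains, and in 37.5% of all 33469 promoters. GCAACNG was found in 3 of the 9 and in 12.2% of all promoters. GAAANNGAA was found in 4 of the 9 (B2m, Tap1, Tap2 and Tapbp) and in 9.71% of all. TGNGTCA, letters of the X2 box, which AP-1 sites share, was found in 0 of the 9 and in 14.5% of all. In RT1-Ba, GCAACTG is followed directly by tgacgtca, which is close to these letters but is not matched by TGNGTCA. Other spellings were not searched for, so the 0 does not show that an X2 box is absent. GCAACNG and GAAANNGAA were chosen after the sequences had been read, and the matches are a description of letters only.

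**Figure D1:**
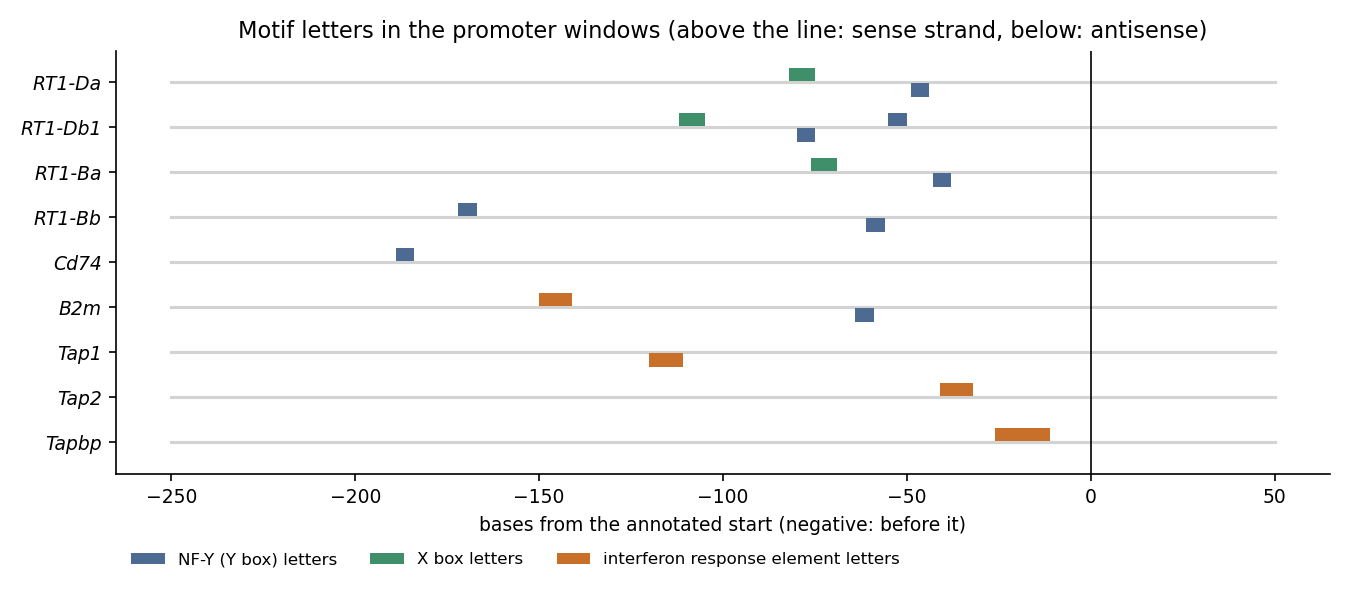
Position of motif letters in the RefSeq promoter windows of 9 genes, in bases from the annotated start, with boxes above a line for the gene's own strand and below it for the other strand. ATTGG lies between 43 and 80 bases before the start in the 4 class II chains, with the X box letters upstream of it in 3 of them.

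Libraries held 15118203 to 18533520 expected counts, and 3 of them stood apart by markers of choroid plexus, microglia or granule cells. Untreated replicate 2 and RG2833 replicate 1 were rich in choroid plexus RNA: Ttr, the transthyretin gene that marks this epithelium, was at 6929 and 8190 CPM (counts per 1000000 counts of a library, after TMM scaling) and at 3.11 to 236 CPM in the other 8. Untreated replicate 3 had the highest summed microglia markers (825 CPM, against 458 to 659 in the other 9) and the lowest Prox1, a granule cell marker (4.3 CPM, against 21.5 to 50.5). Red blood cell markers (6 matched of 8) were highest in untreated replicate 5, at 59.7 CPM, against 10.6 to 37.4 CPM in the other 9. The 3 tested were lower under RG2833 (median log2 fold change -0.49), as were 6509 of the 12161 genes, and 0 passed. All 8 listed neuron markers were measured in the tissue, labelled left hippocampus. The B cell markers Ms4a1 and Cd79b were at 0 in all libraries, and of the T cell receptor complex Cd3d and Cd3g never exceeded 2 counts, while Cd3e ran from 0 to 4.13 CPM. In bulk tissue, fewer cells of a type and less RNA per cell cannot be told apart.

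Cd74, the invariant chain, is made together with the class II chains. Its level was 43.9, 74.5, 82, 38.4 and 47.2 CPM in untreated replicates 1 to 5 and 60.3, 64.5, 45.3, 73.5 and 81.3 CPM in RG2833 replicates 1 to 5. Untreated replicates 2 and 3 stood with RG2833 replicates 4 and 5 at the top, and the other 3 untreated rats stood with RG2833 replicate 3 at the bottom. The means were 57.2 ± 19.6 and 65 ± 13.7 CPM (SD, n = 5 each). The log2 fold change of RG2833 over untreated was 0.18 ± 0.23 (SE; 95% interval -0.32 to 0.69), or 1.14-fold with an interval of 0.80 to 1.61, and it did not pass edgeR's quasi-likelihood test (adjusted p = 0.946; two-sided exact permutation p = 0.413). The difference kept its sign when any 1 library was left out, but it went down to 0.07 when untreated replicate 4 was left out and up to 0.35 when untreated replicate 3 was.

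RT1-Da encodes the alpha chain of the RT1-D molecule. It was measured at 9.58, 19.7, 20.4, 10.3 and 11.8 CPM in the untreated rats and at 15.8, 16.1, 9.91, 17.2 and 18.4 CPM in the RG2833 rats, in replicate order. The order was much that of Cd74: untreated replicates 2 and 3 lay above every RG2833 rat, and the other 3 untreated rats lay below 4 of the 5. RT1-Da averaged 14.3 ± 5.25 CPM untreated and 15.5 ± 3.27 CPM under RG2833, a log2 fold change of 0.11 ± 0.25 (SE; -0.43 to 0.65; edgeR adjusted p = 0.976). Without untreated replicate 1 it was -0.01.

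RT1-Db1 encodes the beta chain of the same molecule. Its values were 5.31, 11.2, 11, 4.84 and 4.51 CPM in the untreated rats and 7.55, 6.87, 5.12, 9.39 and 8.71 CPM in the RG2833 rats. The untreated rats were split into a pair at 11 and 11.2 CPM and 3 rats at 4.51 to 5.31 CPM, and the RG2833 rats ran from 5.12 to 9.39 CPM. The means, 7.37 ± 3.42 and 7.53 ± 1.67 CPM, differed by 0.03 ± 0.30 on the log2 scale (-0.62 to 0.68; edgeR adjusted p = 0.996). That sign turned when any of 5 libraries was left out (untreated replicate 1, 4 or 5, RG2833 replicate 4 or 5), and the values without 1 library ran from -0.10 to 0.23. The expected counts of RT1-Db1 were not whole in 8 of 10 libraries, and those of RT1-Bb and Tapbp in 2, so some of their reads were divided between genes.

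The RT1-B pair shared many of its high and low rats with the RT1-D pair. RT1-Ba, its alpha chain, was at 8.25, 15.7, 15.3, 7.78 and 9.61 CPM untreated and at 12.8, 11.8, 6.65, 12.2 and 15.8 CPM under RG2833. RT1-Bb, its beta chain, was at 7.39, 16.2, 13.4, 6.06 and 6.57 CPM untreated and at 12.5, 9.2, 6.72, 12.8 and 11.3 CPM under RG2833. For RT1-Ba the lowest rat of all was RG2833 replicate 3 and the highest RG2833 replicate 5; for RT1-Bb both ends were untreated rats. RT1-Ba averaged 11.3 ± 3.89 and 11.8 ± 3.31 CPM, a log2 difference of 0.06 ± 0.26 (-0.52 to 0.64; edgeR adjusted p = 0.992). RT1-Bb averaged 9.92 ± 4.59 and 10.5 ± 2.55 CPM, a log2 difference of 0.08 ± 0.30 (-0.58 to 0.74; edgeR adjusted p = 0.988). Each turned sign without untreated replicate 1 (-0.03 and -0.01) or 4 (-0.05 and -0.05), RT1-Ba also without RG2833 replicate 5 (-0.06), and RT1-Bb also without untreated replicate 5 (-0.04).

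Ciita, the class II coactivator, fell under the filter on low counts, with 9, 19, 15, 8 and 5 reads in the untreated rats and 6, 9, 4, 9 and 2 reads in the RG2833 rats. On the scaled library sizes this was 0.519, 0.973, 0.895, 0.49 and 0.271 CPM and 0.387, 0.511, 0.256, 0.564 and 0.138 CPM. Untreated replicates 2 and 3, high in Cd74, were the highest for Ciita too, but RG2833 replicate 5, also high in Cd74, was the lowest. Every RG2833 rat was under the untreated mean, 0.63 ± 0.295 CPM, and the RG2833 mean was 0.371 ± 0.176 CPM, but the ranges overlapped. In a fit with no filter (14750 genes) the log2 fold change was -0.73 ± 0.44 (-1.70 to 0.23), which did not pass (edgeR adjusted p = 0.869). The interval is wide, and it rests on at most 19 reads a library.

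B2m, the light chain shared by all class I molecules, had the smallest spread within groups of the 9 tested genes. Its values were 358, 435, 520, 460 and 416 CPM untreated and 439, 472, 443, 550 and 567 CPM under RG2833. All 5 RG2833 rats lay above the untreated mean, but untreated replicate 3 lay above 3 of them. The means were 438 ± 59.1 and 494 ± 60.1 CPM, 1.13-fold apart. The log2 fold change was 0.17 ± 0.11 (-0.07 to 0.42) and did not pass (edgeR p = 0.15, adjusted p = 0.865; exact permutation p = 0.151). Leaving out 1 library gave from 0.11 (without untreated replicate 1) to 0.24 (without untreated replicate 3), the latter with an unadjusted edgeR p of 0.0412 and an adjusted p of 0.34.

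Tap1, a subunit of the peptide transporter, had the lowest log2 fold change of the 9 tested genes. Its levels were 8.08, 15.2, 13.9, 9.92 and 10 CPM untreated and 11.4, 9.94, 6.52, 10.8 and 9.89 CPM under RG2833. Untreated replicates 2 and 3 were the highest and RG2833 replicate 3 was the lowest, while the other 7 rats lay within 8.08 to 11.4 CPM. The means were 11.4 ± 3 and 9.72 ± 1.9 CPM, a log2 difference of -0.23 ± 0.20 (-0.67 to 0.20; edgeR adjusted p = 0.913; exact permutation p = 0.349). Leaving out untreated replicate 2 gave -0.11, and leaving out untreated replicate 1 gave -0.34. The expected counts of Tap1 and Tap2 were not whole in any of the 10 libraries, so reads were divided between genes. The sum of the pair was whole in 10 of 10 libraries, a check added after the values were seen. It averaged 26.2 ± 6.18 CPM untreated and 25.1 ± 3.6 CPM under RG2833.

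Tap2, the other transporter subunit, and Tapbp, tapasin, were each high in the choroid-rich libraries. Tap2 was at 11.6, 20.5, 14.4, 14.2 and 13 CPM untreated and at 19.2, 14.4, 14.1, 14.8 and 14.7 CPM under RG2833. Tapbp was at 16.3, 27.1, 19.2, 16.8 and 17.3 CPM untreated and at 24.7, 16.9, 15.4, 18.9 and 17 CPM under RG2833. Untreated replicate 2 and RG2833 replicate 1 were the highest rats for both genes, and the other 8 lay within 11.6 to 14.8 CPM for Tap2 and within 15.4 to 19.2 CPM for Tapbp. With 1 such library in each group, the means were nearly level: 14.8 ± 3.42 and 15.4 ± 2.11 CPM for Tap2 (log2 fold change 0.06 ± 0.15; -0.27 to 0.40; edgeR adjusted p = 0.977), 19.3 ± 4.46 and 18.6 ± 3.65 CPM for Tapbp (-0.06 ± 0.17; -0.43 to 0.31; edgeR adjusted p = 0.981). Leaving out 1 library turned the sign of Tap2 (-0.03 without RG2833 replicate 1, -0.01 without untreated replicate 1) and of Tapbp (0.09 without untreated replicate 2, 0.0024 without RG2833 replicate 3).

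**Figure D2:**
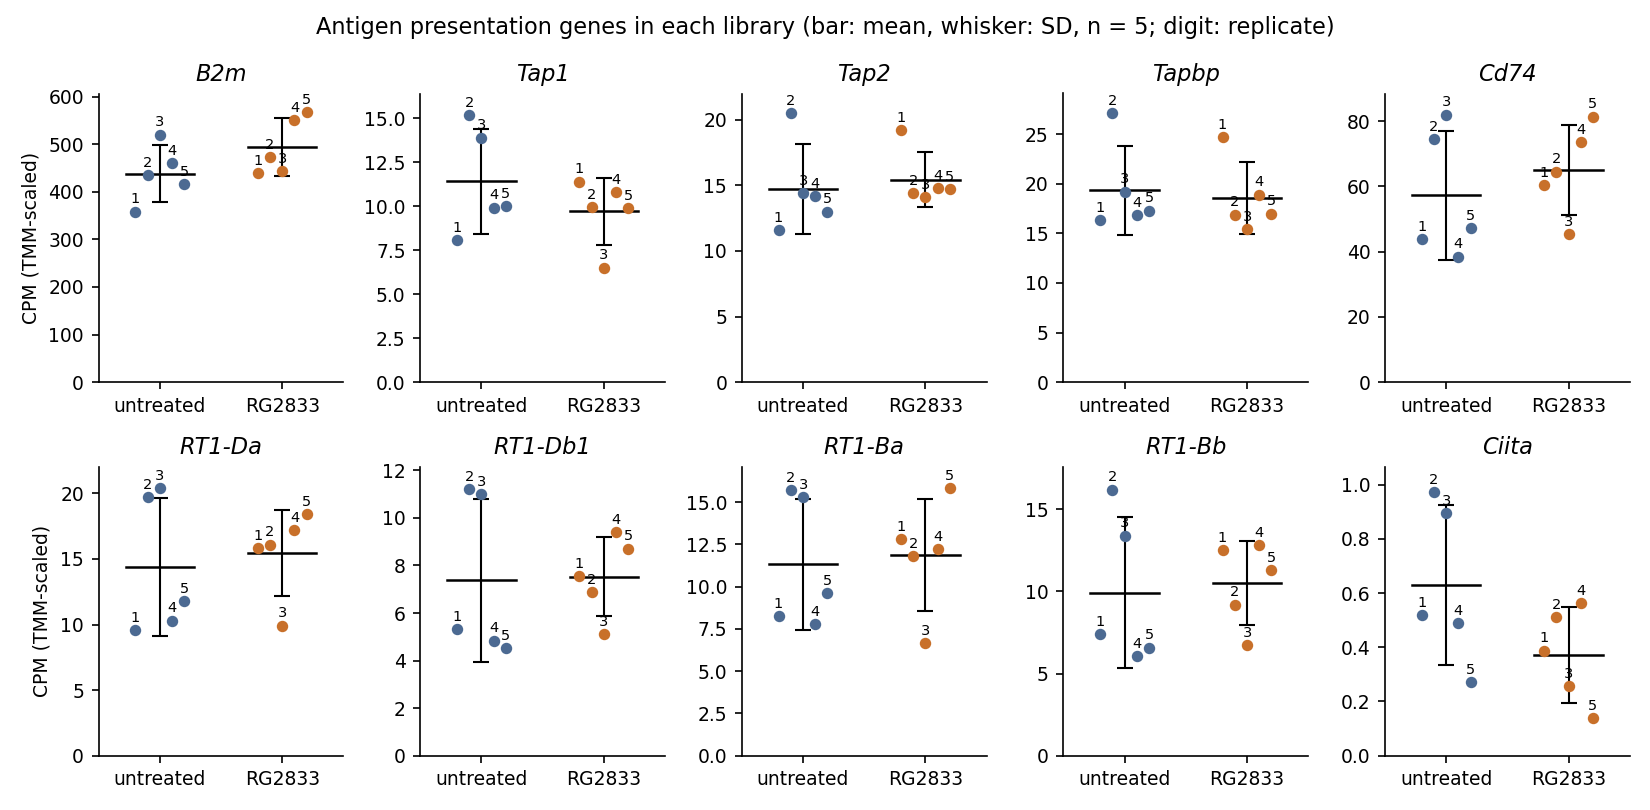
CPM of the 10 genes in each library, with the replicate number beside each point, a bar at the group mean and a whisker of 1 SD (n = 5 per group). The groups overlap in every panel, and untreated replicates 2 and 3 are high in each class II gene.

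Counted over the list, 0 of the 9 tested genes had an edgeR adjusted p under 0.05, where 0% of the 12161 genes tested did, and 0 had an unadjusted p under 0.05, where 5.66% of all genes did. Of all genes, DESeq2 called 7 and limma-voom 0, and each called 0 of the 9. The groups were apart in 0 of the 9, and in 1.00% of all genes. The median log2 fold change of the 9 was 0.06 (from -0.23 to 0.18), beside -0.01 for all genes, and 7 of the 9 were higher under RG2833, as were 46.5% of all genes. All 5 of Cd74 and the class II chains were on the higher side, with a median of 0.08, and 2 of the 4 class I genes were. These 5 varied together (r of 0.89 to 0.97), so their shared side is not 5 separate results. Each of the 4 chains turned sign in some fit with 1 library left out. The number of genes at an unadjusted p under 0.05 changed from 688 to 1732 without untreated replicate 3 and to 375 and 424 without RG2833 replicates 4 and 5.

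**Figure D3:**
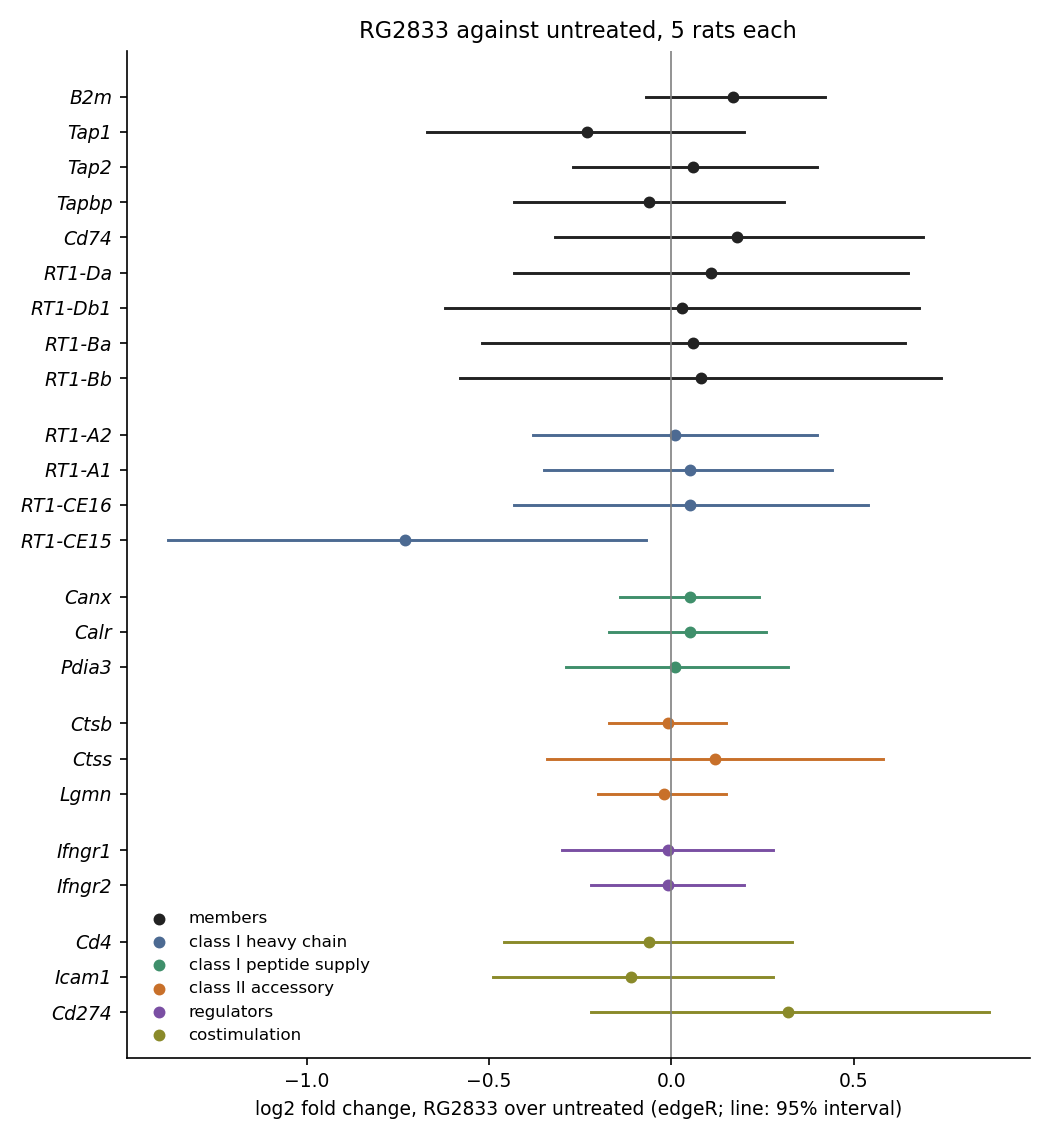
Log2 fold change of RG2833 over untreated from edgeR with its 95% interval, for the 9 tested genes and for further genes of the pathway (5 rats a group). Every interval of the 9 crosses 0, and among the others that of RT1-CE15 alone does not.

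The spread within groups was wide for the class II genes, but not for them alone. The SD of log2 CPM within groups was 0.41 for Cd74 and 0.44 to 0.53 for the 4 chains. These lay at percentiles 85 to 91.4 of all genes tested, beside 0.19 and percentile 49.1 for B2m. Of the lists described below, the median SD was 0.39 for class I heavy chains, 0.45 for costimulation, 0.41 for endothelium and 0.76 for border macrophages. It was 0.21 for class I peptide supply, 0.17 for class II accessory genes, 0.20 for regulators and 0.19 for all genes. Relative to the mean of the 10 libraries, Cd74 and all 4 chains were above it in untreated replicates 2 and 3 and RG2833 replicates 1, 4 and 5. All 5 were below it in untreated replicates 1, 4 and 5 and RG2833 replicate 3, and RG2833 replicate 2 had 3 above and 2 below. Their mean deviations in the untreated rats were -0.44, 0.54, 0.50, -0.56 and -0.40 on the log2 scale. In the RG2833 rats they were 0.17, 0.05, -0.52, 0.30 and 0.37. Over the 10 libraries, the Pearson correlation of log2 CPM lay between 0.89 and 0.97 in all 10 pairs of these 5 genes. Cd74 itself differed 2.13 times between libraries. The ratio to Cd74 ran from 0.218 to 0.268 for RT1-Da, 0.147 to 0.212 for RT1-Ba, 0.139 to 0.218 for RT1-Bb and 0.0955 to 0.151 for RT1-Db1. These correlations rest on shared libraries and carry no test.

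**Figure D4:**
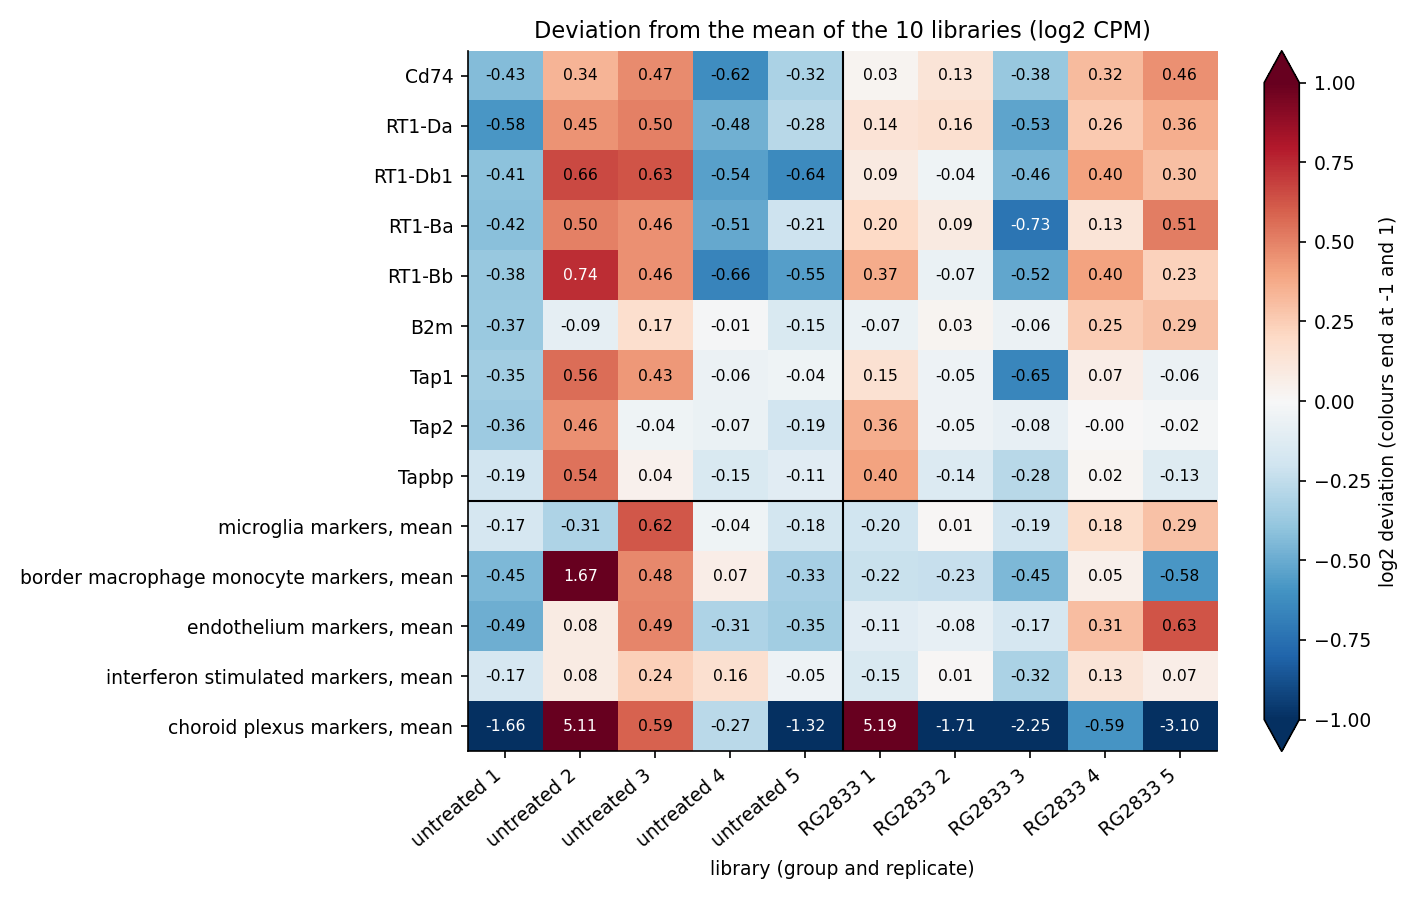
Deviation of log2 CPM from the mean of the 10 libraries for the 9 tested genes and, below the line, for the mean of marker lists of cell types and of interferon-stimulated genes. Cd74 and the class II chains share their high and low rats, and Tap2 and Tapbp are highest in the libraries rich in choroid plexus markers.

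Markers of other cells moved in part with these genes. Summed over 10 of 10 markers, microglia were at 475, 458, 825, 520 and 479 CPM untreated and 502, 543, 484, 621 and 659 CPM under RG2833. Untreated replicate 3 and RG2833 replicates 4 and 5, the richest in microglia markers, were also high in class II, but untreated replicate 2, as high in class II, had the lowest microglia sum. Border macrophage and monocyte markers (7 matched of 9) summed to 8.14 to 35 CPM untreated, the highest in untreated replicate 2, and to 8.16 to 12.5 CPM under RG2833. Mrc1, the mannose receptor of these macrophages, was at 14.4 CPM in untreated replicate 2 and at 1.6 to 4.48 CPM in the other 9. Of the 5 tested markers, 3 were lower under RG2833 at an unadjusted edgeR p under 0.05 (Mrc1 at -1.34 on the log2 scale, adjusted p = 0.841), as were 330 of all 12161 genes. The other 2, Lyve1 and Clec10a, were at -0.09 and -0.26. Without untreated replicate 2 the 3 did not keep that p, with log2 fold changes of -0.57 (Mrc1), -0.46 (Cd163) and -0.71 (F13a1). Lyve1 and Clec10a then turned to the higher side, at 0.06 and 0.23. Cd74 per Csf1r, the receptor that microglia and macrophages need, was 0.292, 0.507, 0.302, 0.248 and 0.322 untreated and 0.394, 0.389, 0.302, 0.377 and 0.399 under RG2833. The ratio's highest and lowest values were both in untreated rats, and its means were 0.334 ± 0.1 and 0.372 ± 0.0401. Dendritic cell markers (6 matched of 8) summed to 10.5 to 15.8 CPM untreated and 12.1 to 14.8 CPM under RG2833, and the 3 tested were higher, with a median log2 fold change of 0.13 and 0 passing. Xcr1, a marker of cross-presenting dendritic cells, was under the filter, with 4 counts at most. Endothelial markers (7 matched of 8) summed to 221 to 426 CPM untreated and 268 to 473 CPM under RG2833, highest in RG2833 replicate 5 and untreated replicate 3. Of these 7, 6 were higher under RG2833 (median log2 fold change 0.27) and 0 passed. Astrocyte markers (8 of 8) summed to 6037 to 8989 CPM untreated and 6830 to 9834 CPM under RG2833. All 8 were higher under RG2833, with a median log2 fold change of 0.32, as were 46.5% of all genes. Of the 8, 2 had an unadjusted edgeR p under 0.05, as did 358 of the 12161 genes on the higher side, and 0 passed. Their mean deviation was highest in RG2833 replicates 4 and 5 (0.40 and 0.38), which were also the highest rats for B2m. Neuron markers (8 of 8) summed to 5025 to 6827 CPM untreated and 5704 to 6640 CPM under RG2833. Of the 8, 7 were lower, as were 6509 of the 12161 genes, and 0 passed, with log2 fold changes from -0.18 to 0.43. The part of these cells in the values of the class II genes and B2m was not tested.

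Across the 10 libraries Cd74 had a Pearson r of 0.68 with Csf1r (Spearman's rho 0.55), 0.76 with Cldn5, a tight junction gene of endothelium (rho 0.73), and 0.27 with Ttr (rho 0.26). B2m had an r of 0.73 with Csf1r (rho 0.92) and 0.90 with Cldn5 (rho 0.84). B2m per Csf1r was 2.78 to 2.95 in the RG2833 rats and 1.91 to 2.96 in the untreated rats, where untreated replicate 3 was lowest. Tap1 had an r of 0.70 with Ttr (rho 0.88) and 0.79 with Mrc1 (rho 0.77). Tapbp had an r of 0.94 with Ttr, and 0.70 without the choroid-rich pair of libraries, and Tap2 an r of 0.84, and 0.18 without that pair. Without that pair Tapbp also had an r of 0.76 with Csf1r, 0.76 with Mrc1 and 0.61 with Cldn5. For Tap2 these were 0.53, 0.17 and 0.73. Tap2 and Tapbp had an r of 0.91 with each other, and 0.39 without that pair. All are descriptions over 10 libraries, in which both genes of a pair share each library's depth and tissue makeup.

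**Figure D5:**
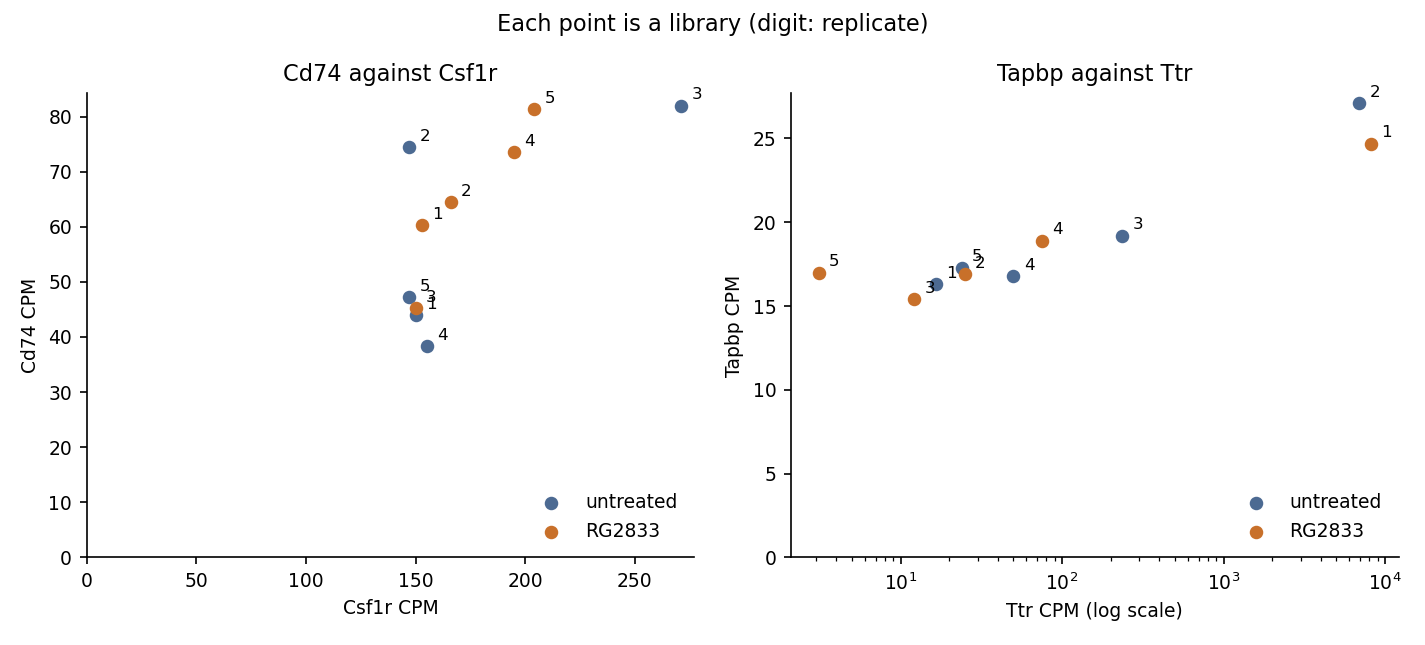
Left, Cd74 against Csf1r, and right, Tapbp against Ttr (log scale on the x axis), in CPM, each point being 1 library with its replicate number. Untreated replicate 2 has high Cd74 at the low end of Csf1r, and the 2 choroid-rich libraries are the highest for Tapbp.

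Leaving out the 3 libraries that stood apart (untreated replicates 2 and 3 and RG2833 replicate 1) kept 0 genes called but moved the members' values. This set of 3 was chosen after the data were seen, and it holds the highest untreated rats for Cd74 and all 4 chains, so removing them lowers the untreated mean. Over the remaining 3 untreated and 4 RG2833 rats, Cd74 had a log2 fold change of 0.61 ± 0.18 (0.20 to 1.03), with an edgeR adjusted p of 0.248. The chains were at 0.54 (RT1-Da), 0.62 (RT1-Db1), 0.44 (RT1-Ba) and 0.58 (RT1-Bb), with edgeR adjusted p of 0.285 to 0.421, and B2m was at 0.30 (edgeR adjusted p = 0.315). Tap1 was at -0.01, Tap2 at 0.16 and Tapbp at 0.02. Of the 9 genes, 5 then had an unadjusted p under 0.05, as did 14.7% of all genes. Without the choroid-rich pair alone, 0 of the 9 did, and 596 of all genes did. Without untreated replicate 3 alone, 1 did (B2m), as did 14.2% of all genes.

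Class I heavy chains of the RT1 region pair with B2m, and those of classical molecules bind the peptide. Of 35 listed, 31 were in the table and 24 were tested: 11 were higher under RG2833, 13 lower and 0 passed, with a median log2 fold change of -0.02. The list also held 4 class I-like genes, Mr1, Cd1d1, Fcgrt and Hfe, of which 1 was higher, 3 lower and 0 passed. Of the heavy chains, the rule by mean CPM named RT1-A2 (82 ± 21.5 CPM untreated, 82.7 ± 14.7 under RG2833), RT1-A1 (55.9 ± 14 and 57.7 ± 10.9) and RT1-CE16 (48.8 ± 15.6 and 50.7 ± 12.6). Each was highest in untreated replicate 2 and next highest in RG2833 replicate 1. Of the 24, 1 had an unadjusted p under 0.05, where 5.66% of all genes did: RT1-CE15, at 1.56, 3.33, 2.75, 1.59 and 2.06 CPM untreated and 1.94, 0.738, 1.6, 1.19 and 1.38 CPM under RG2833. Its log2 fold change was -0.73 ± 0.30 (-1.38 to -0.07; edgeR p = 0.0331, adjusted p = 0.841; exact permutation p = 0.0556). The RT1 heavy chains are close copies of each other, so reads may be divided among them, which would leave each one's level uncertain. How far this held was not tested. The reference assembly rn6 is from the Brown Norway strain, whose RT1 haplotype differs from that of Fischer rats, and its bearing on the counts was not tested.

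Genes for proteins that trim class I peptides and load them did not pass either. Of 11 listed, all tested, 6 were higher, 5 lower and 0 passed. Canx and Calr, the chaperones that fold the heavy chain, were at 672 ± 69.9 and 695 ± 45.9 CPM and at 583 ± 62.7 and 601 ± 64.9 CPM, and Pdia3, the thiol oxidoreductase of the loading complex, was at 325 ± 57 and 328 ± 52.9 CPM. The immunoproteasome subunits Psmb8 and Psmb9, which interferon gamma induces, were at 6.09 ± 1.41 and 5.78 ± 0.743 CPM and at 6.33 ± 1.99 and 5.26 ± 1.12 CPM. Psmb10, the other such subunit, was at 21.4 ± 1.73 and 21.4 ± 1.74 CPM. These 3 were named after their values were seen, for their role beside Tap1.

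Class II accessory genes included the DM chains, which exchange the Cd74 peptide for others, and the proteases that cut Cd74. Of 13 listed, 7 were tested, 5 of them higher, 2 lower and 0 passing, with a median of 0.08. Ctss, cathepsin S, was at 302, 259, 564, 318 and 312 CPM untreated and 318, 375, 311, 430 and 471 CPM under RG2833. Its highest value, like that of Cd74, was in untreated replicate 3, but its lowest was in untreated replicate 2, where Cd74 was high. Ctss differed by 0.12 ± 0.21 on the log2 scale (edgeR adjusted p = 0.964), by 0.35 without untreated replicate 3, and by 0.03 without untreated replicate 2 or without RG2833 replicate 5. Ctsb, cathepsin B, was at 651 ± 36.6 and 646 ± 41.4 CPM, and Lgmn, an asparagine endopeptidase, at 133 ± 13.4 and 131 ± 9.31 CPM.

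Regulators of both classes comprised 16 genes, of which 15 were tested. Of these 4 were higher, 11 lower and 0 passed, where 46.5% of all genes were higher. All but Socs1 (-0.20) had log2 fold changes between -0.10 and 0.07. Ifngr1 and Ifngr2, the chains of the interferon gamma receptor, were at 52.6 ± 9.95 and 52.3 ± 6.87 CPM and at 52.2 ± 5.58 and 51.8 ± 5.79 CPM. Of 14 interferon-stimulated genes tested, 3 were higher, 11 lower and 0 passed, with a median of -0.20 (from -0.35 to 0.45). The median of all genes was -0.01. Their summed level was 179 to 224 CPM untreated and 185 to 225 CPM under RG2833.

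Costimulation and T cell contact genes help decide how a T cell answers a presented peptide. Of 10 listed, 7 were tested, with 3 higher, 4 lower and 0 passing. Cd4, the class II coreceptor that rat microglia and macrophages also carry, was at 12 ± 3.24 and 11.5 ± 1.55 CPM. Icam1, an adhesion molecule, was at 8.13 ± 2.14 and 7.55 ± 0.93 CPM. Cd274, the inhibitory ligand PD-L1, was at 2.14, 1.59, 0.836, 1.53 and 0.977 CPM untreated and 1.94, 1.65, 1.73, 1.88 and 1.66 CPM under RG2833. The RG2833 values were close together inside the untreated range, and the log2 fold change was 0.32 ± 0.25 (-0.22 to 0.87; edgeR adjusted p = 0.903). Leaving out untreated replicate 3 gave 0.19, and leaving out untreated replicate 1 gave 0.52.

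The genes whose log2 CPM followed Cd74 most closely over the 10 libraries, among 12152 compared, were Fxyd5 (r = 0.965), Syngr2 (0.958), Selenbp1 (0.939), Ifi30 (0.938) and Bcam (0.933). Ifi30, which encodes the lysosomal thiol reductase GILT, is on the class II accessory list, and it was at 17.3 ± 4.12 CPM untreated and 17.7 ± 2.36 CPM under RG2833. Those closest to B2m were Tns3 (r = 0.994), Fyco1 (0.986), Ppard (0.986), Hadh (0.978) and Tcte1 (0.977). The 9 tested members were left out of this search.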

How the data were processed

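Per the labels' protocols, RNA came from an RNeasy kit and libraries from a stranded mRNA kit. The submitters' processing notes name bcl2fastq 2.17, Bowtie2 2.1.0, RSEM 1.2.15, edgeR and the build rn6. The deposited expected counts are RSEM estimates that need not be whole (11.6% of values were not). The authors also deposited a TMM-scaled CPM signal, in which 100% of values were whole multiples of 1 read (tolerance 0.01 of a read). Over 17164 genes, 99.91% to 99.97% of these reads equalled the rounded counts.

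Expected counts were rounded and tested with edgeR 4.0.16 (R 4.3.3): filterByExpr (minimum count 10, total 15), which kept 12161 of 17168 genes (70.8%), TMM scaling, the robust quasi-likelihood F test and Benjamini-Hochberg adjustment over all genes tested, at 0.05. Intervals are at 95%, with SEs from the F statistic. CPM values were recomputed from the counts, and log2 CPM used a prior count of 2. Exact permutation tests were two-sided over 252 regroupings of 5 and 5 libraries (smallest possible p 0.00794). CPM was not divided by gene length, so CPM orders genes by reads, as used for naming, and not by level. The fit was tested on simulated data. The members and lists were chosen with earlier results of these data known. Of each list, the 3 genes with the highest mean CPM and those with an unadjusted p under 0.05 were named, and the 5 genes most correlated with Cd74 and B2m. Of these, 1 gene is not reported here. No 2 libraries were alike within sampling noise (45 pairs, chi-square per gene at least 7.38). The alternatives were other scalings, filters, DESeq2 1.42.0, limma-voom (limma 3.58.1), a replicate block and libraries left out.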

Additional observations from a re-analysis of the deposited data

Results flagged for a closer look

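In 3 of 20 sets of 5 rats (10 genes in 2 groups), 1 library lay far from the other 4. Its gap was over 0.71 of the whole range of log2 CPM (Dixon's 95% value). For independent sets chance gives about 1 in 20. These genes varied together over shared libraries, so the 3 cannot be set against that rate. Tap1 was at 6.52 CPM in RG2833 replicate 3 and at 9.89 to 11.4 CPM in the other RG2833 rats (gap 0.742 of the range). RT1-Da was at 9.91 CPM in the same rat and at 15.8 to 18.4 CPM in the others (gap 0.755). Tap2 was at 19.2 CPM in RG2833 replicate 1, a choroid-rich library, and at 14.1 to 14.8 CPM in the others (gap 0.827). The part of other cell types in these values was not tested.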

How the results depend on the processing

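In all 20 alternatives 0 of the tested members were called, and 0 genes were called in all but 1: DESeq2 called 7 genes, none of them a member. Of 180 alternative log2 fold changes of the 9 members, 163 kept their sign and 17 turned, and the smallest adjusted p was 0.248. Of 298 for the pathway genes named by mean CPM or by unadjusted p, 40 turned, with a smallest adjusted p of 0.303. Other pathway genes in the text, such as Psmb8, Socs1 and Ifi30, are not in this count. With 1 library left out, the members that turned sign ran as follows: Tap2 from -0.03 to 0.21, Tapbp from -0.18 to 0.09, RT1-Da from -0.01 to 0.27, RT1-Ba from -0.06 to 0.21, RT1-Bb from -0.05 to 0.33 and RT1-Db1 from -0.10 to 0.23. Among the pathway genes so named, those that turned sign ran as follows: RT1-A2 from -0.09 to 0.17, RT1-A1 from -0.05 to 0.20, RT1-CE16 from -0.10 to 0.26, Canx from -0.01 to 0.10, Calr from -0.02 to 0.11, Pdia3 from -0.09 to 0.12, Ctsb from -0.05 to 0.01, Lgmn from -0.05 to 0.04, Ifngr1 from -0.06 to 0.11, Ifngr2 from -0.04 to 0.05, Cd4 from -0.17 to 0.09 and Icam1 from -0.20 to 0.03. Ifngr1 (-0.01) also turned under limma-voom (0.00019), the replicate block (0.00096), without the choroid-rich pair of libraries (0.02) and without the 3 libraries that stood apart (0.18). Without those 3 libraries, Tapbp was at 0.02, Canx and Pdia3 at -0.05, Calr at -0.0027, Lgmn at 0.02, Cd4 at 0.20 and Icam1 at 0.10. The cause was not tested, beyond the libraries each fit leaves out. Genes at an unadjusted p under 0.05 numbered 688, between 375 and 1732 with 1 library left out, 1792 without the 3 libraries and 401 with the replicate block. The count test on reads recovered from the deposited TMM values called 0 genes. The fits without the 3 libraries and on recovered reads were chosen after seeing the data.

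Same-numbered rats of the groups did not vary together (correlation of deviations from the group means -0.487 to -0.0339 over 5 pairs, and none best with its own number). The labels state no pairing, and the numbers were treated as names of rats. Differences in tissue makeup can hide a pairing, so these correlations do not exclude it. The replicate block called 0 genes and 0 members.

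With 5 rats a group, the 95% intervals of the class II chains and Cd74 reached up to 1.56- to 1.67-fold and down to 0.649- to 0.80-fold, and the data do not separate values inside them. Ciita had 2 to 19 reads a library.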
